A study of Mus musculus with 39 samples.

Results

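The MHC class II presentation genes described here are Cd74, H2-Aa, H2-Ab1, H2-Eb1, H2-DMa, H2-DMb1, H2-Oa and Ciita, 8 of the 28023 gene symbols in each of the deposited expression tables. They were taken by symbol and not by a rule on measured values, though earlier results of these data were known when they were chosen. Expression was measured in 20 libraries of sorted CD8+ T cells from tumours of MCA-205, a mouse fibrosarcoma line, and in 19 libraries labelled bulk tumour from a parallel experiment. All hosts were wild-type C57BL/6 mice that had received a faecal microbiota transplant (FMT) of stool from human volunteers. The stool had been exposed for 6 days to CZA+DAV132 or to CZA, an agent the labels give only by this abbreviation. DAV132 adsorbs drugs in the gut. Tumour cells were implanted under the skin 2 weeks after the transplant. Once tumours measured 25 to 35 mm2, mice received 4 injections at intervals of 3 days, of 250 µg of anti-PD-1 (clone RMP1-14) or of an isotype antibody (clone 2A3), and were killed 2 days after the last. The sorted CD8 set had 5 libraries in each of the CZA+DAV132 anti-PD-1, CZA+DAV132 isotype, CZA anti-PD-1 and CZA isotype groups. The libraries labelled bulk tumour had 5, 4, 5 and 5 in the same order. The labels do not tie a library to its own mouse, so the spread behind each p-value is that of libraries and may be partly technical. Each arm stands on its own stool material, with no replicate stools, so an effect of DAV132 and other differences between the stools cannot be told apart.

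MHC class II molecules present peptides from the endosomal route to CD4 T cells. They are made mainly by B cells, dendritic cells and macrophages, and mouse T cells are generally low in them. The classical alpha and beta chains assemble with the invariant chain, which fills the groove until proteases degrade it. H2-DM then exchanges the remaining fragment for peptide and H2-O restrains H2-DM. The transactivator CIITA turns on these genes by docking on factors bound to X and Y boxes in their promoters.

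The X and Y boxes are shown because they are the shared promoter element that ties most of these genes to CIITA. RefSeq promoter windows (build GRCm38.p6), which run from 250 bases upstream of a start site, were matched by symbol for 5 of the 8 genes. The stretches below, written 5′ to 3′ on the gene's strand, carry in capitals the X box core GNAAC and the Y box core ATTGG, which is the reverse complement of a CCAAT box.
H2-Aa, chr17:34287867-34287924, minus strand: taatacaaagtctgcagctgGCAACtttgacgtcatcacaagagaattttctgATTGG
H2-Eb1, chr17:34305756-34305812, plus strand: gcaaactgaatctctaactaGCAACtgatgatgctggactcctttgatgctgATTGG
H2-Oa, chr17:34092283-34092340, plus strand: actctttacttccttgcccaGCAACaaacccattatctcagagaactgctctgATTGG

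All these stretches read GCAAC at the X core. The cores are 28 bases apart in H2-Aa, 27 in H2-Eb1 and 28 in H2-Oa, and the X core begins 81, 91 and 76 bases upstream of the RefSeq start in the same order. H2-DMb1 also holds the pair, 28 bases apart, with the X core beginning 94 bases upstream. Neither of the H2-DMa windows holds it. Their RefSeq starts, 34122832 and 34125518, lie inside the gene span given below for H2-DMa, which begins at 34119541. The bases upstream of that point were not searched. GNAAC followed by ATTGG at a distance of 26 to 29 bases, searched on both strands, occurs in 192 of 32851 promoter windows (0.584%), whereas ATTGG alone occurs in 33.8%. The H2-Aa stretch also holds TGACGTCA, a CREB-type site that overlaps neither core and is found in 1.55% of windows. The spacing was set with these promoters in view, and a match in letters is a description of the window.

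Expression values are TPM, transcript abundance scaled for transcript length and to a fixed total per library, so levels can be set side by side between genes. TPM keeps no read counts, and the depth behind each value is unknown. Libraries 16 and 19 of the CZA+DAV132 group given anti-PD-1 stood apart in the CD8 set. Their 10 most abundant gene entries took 45.0% and 69.0% of the TPM, against 14.2% to 32.6% in the other CD8 libraries, which leaves smaller shares for the remaining genes. Their size factors (the median ratio of their genes to the average library) were 0.625 and 0.349, against 0.945 to 1.23. T026 of the same group among the libraries labelled bulk tumour had 56.7% and a size factor of 0.607. Counts of members called in tests that include libraries 16 and 19 are therefore also given without them, with the changes of some members and some correlations among them. T026 was left out only in the ranges that drop each library in turn.

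In sorted CD8 libraries the invariant chain was the most abundant of these transcripts and the transactivator the least. Over all 20 libraries the median level was 184.7 TPM for Cd74, 75.7 TPM for H2-Ab1, 65.3 TPM for H2-Aa and 47.3 TPM for H2-Eb1. H2-DMa had a median of 29.1 TPM, H2-DMb1 of 9.57 TPM, H2-Oa of 9.17 TPM and Ciita of 0.462 TPM. The highest library held 24.7 times the lowest for Cd74, 30.4 times for H2-Ab1 and 11.0 times for H2-DMa. The ranges of H2-Ab1, H2-Aa and H2-Eb1 overlapped widely, as did those of H2-DMb1 and H2-Oa. No CD8 library reached 1 TPM of Ciita, which was therefore not tested there.

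**Figure D1:**
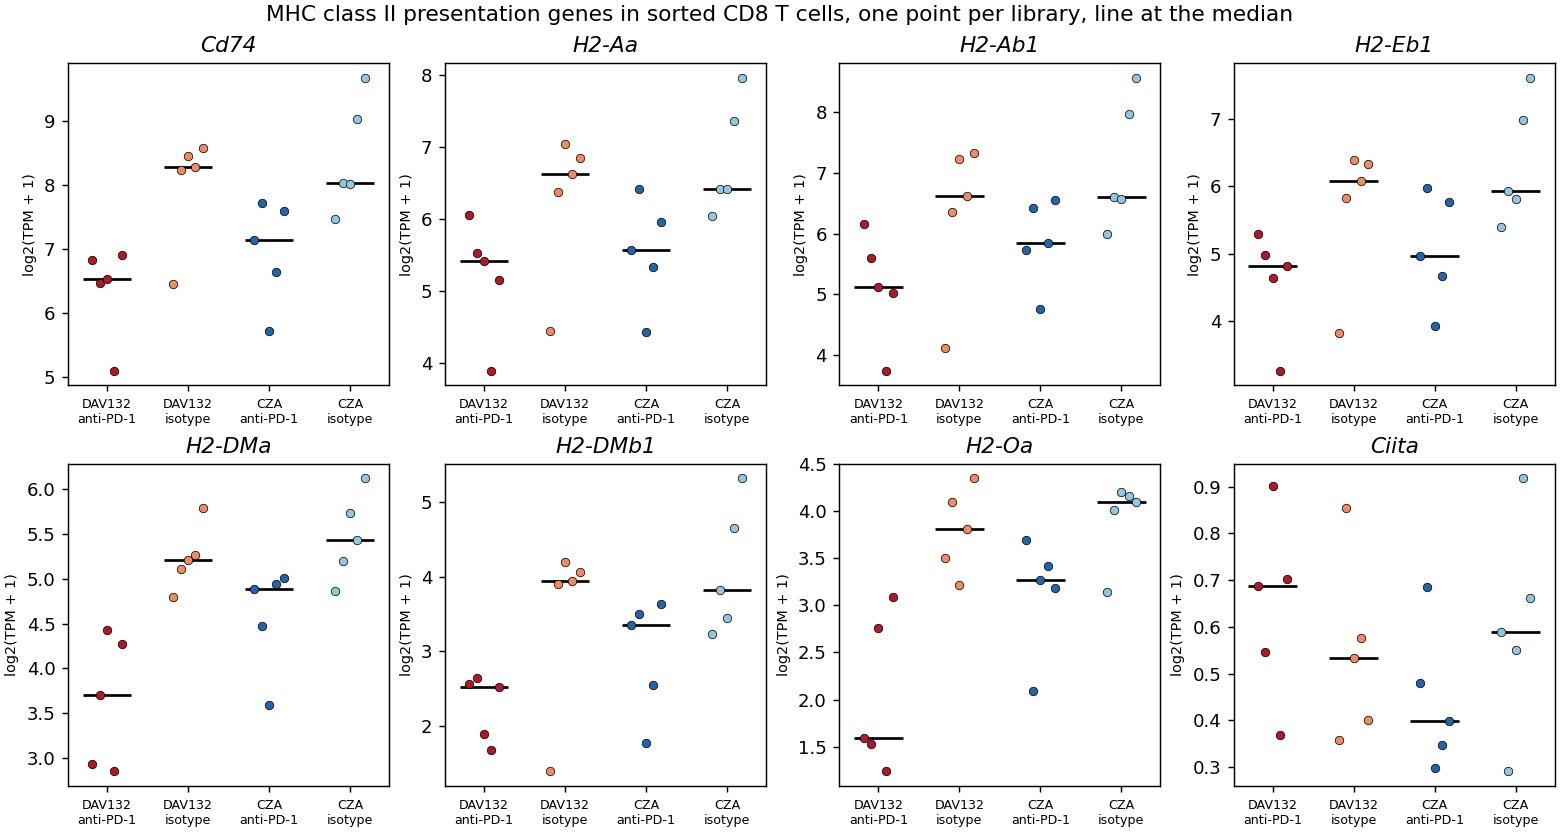
Level of each gene, log2(TPM + 1), in the 20 sorted CD8 libraries by group, with a point for each library and a line at the group median; axes differ between panels and do not start at 0. The anti-PD-1 medians lie below the isotype medians in both arms for every gene except Ciita, and 1 isotype library of the CZA+DAV132 arm (library 11, Cd74 86.8 TPM) lies with the anti-PD-1 libraries for most of them.

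Anti-PD-1 was first compared with isotype among CD8 libraries of the CZA+DAV132 arm. Cd74, H2-DMa and H2-Oa fell, which is 3 of the 7 genes tested, and the other 4 had lower means that did not pass. Differences are log2 changes on the log2(TPM + 1) scale, tested with limma across 12942 genes with Benjamini-Hochberg adjustment and called at an adjusted p under 0.05. In this comparison 19.4% of all genes tested were called lower and 4.12% higher. All 7 were lower at an unadjusted p under 0.05, against 30.8% of all genes lower and 6.13% higher. The median change was −1.24 over the 7 genes and −0.34 over all genes.

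Cd74 encodes the invariant chain (ENSMUSG00000024610, chromosome 18). It had 112, 87.4, 91.3, 33.2 and 119 TPM in CZA+DAV132 anti-PD-1 libraries 16 to 20, against 86.8, 302, 348, 312 and 379.9 TPM in the CZA+DAV132 isotype libraries 11 to 15. Isotype library 11 alone lay within the anti-PD-1 range, and every other isotype library was above it. The means were 88.5 ± 33.7 TPM with anti-PD-1 and 286 ± 115 TPM with isotype (SD, n = 5 each), a log2 change of −1.64 (SE 0.48, limma adjusted p = 0.0188). Without libraries 16 and 19 the change in Cd74 was −1.37 and did not pass (adjusted p = 0.0968).

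H2-DMa encodes the alpha chain of the peptide exchanger H2-DM (ENSMUSG00000037649, GRCm38 chromosome 17, 34119541 to 34139101). It had 6.63, 12.0, 20.5, 6.24 and 18.3 TPM in CZA+DAV132 anti-PD-1 libraries 16 to 20, against 26.7, 33.4, 35.9, 37.4 and 54.2 TPM in the CZA+DAV132 isotype libraries 11 to 15. The groups did not overlap, and libraries 16 and 19 were the lowest. The log2 change was −1.59 (SE 0.34, limma adjusted p = 0.00715).

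H2-Oa encodes the alpha chain of H2-O, the modulator of H2-DM (ENSMUSG00000024334, chromosome 17, 34092340 to 34095234). It had 2.01, 1.89, 5.77, 1.36 and 7.51 TPM in CZA+DAV132 anti-PD-1 libraries 16 to 20, against 10.3, 16.1, 8.28, 13.1 and 19.4 TPM in the CZA+DAV132 isotype libraries 11 to 15. These groups did not overlap either; over all genes, 12.1% had non-overlapping groups in the lower direction. The log2 change was −1.75 (SE 0.36, limma adjusted p = 0.0068). Without libraries 16 and 19, when 5.2% of all genes were called lower, H2-Oa (−1.33, limma adjusted p = 0.0392) and H2-DMa (−1.10, adjusted p = 0.0427) still passed.

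The classical chains had lower means with anti-PD-1 without passing. H2-Aa, the alpha chain of I-A (ENSMUSG00000036594, chromosome 17, 34282744 to 34287823), had 65.8, 44.9, 41.9, 13.8 and 34.4 TPM in CZA+DAV132 anti-PD-1 libraries, against 20.6, 81.8, 130.5, 97.9 and 114 TPM in the CZA+DAV132 isotype libraries. Isotype library 11 was below all anti-PD-1 libraries but 1, and the other isotype libraries were above all of them. The log2 change in H2-Aa was −1.06 (SE 0.49, limma adjusted p = 0.12).

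H2-Ab1, the partner beta chain (ENSMUSG00000073421, chromosome 17, 34257689 to 34269419), ranged over 12.4 to 70.4 TPM with a median of 33.9 TPM in the CZA+DAV132 group given anti-PD-1, against 16.4 to 159 TPM with a median of 97.4 TPM in the CZA+DAV132 group given isotype. Its log2 change was −1.20 (limma adjusted p = 0.131). H2-Eb1, the beta chain of I-E (ENSMUSG00000060586, chromosome 17, 34305867 to 34316674), ranged over 8.61 to 38.4 TPM with a median of 27.2 TPM with anti-PD-1, against 13.1 to 82.7 TPM with a median of 66.4 TPM with isotype (log2 change −1.08, adjusted p = 0.129). C57BL/6 mice lack a working I-E alpha chain, and its locus, listed as H2-Ea-ps, averaged 0.0137 and 0.0351 TPM in the anti-PD-1 and isotype groups of this arm.

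H2-DMb1, a beta chain of H2-DM (ENSMUSG00000079547, chromosome 17, 34153072 to 34160230), had 4.88, 5.27, 2.71, 2.19 and 4.75 TPM in CZA+DAV132 anti-PD-1 libraries, against 1.63, 13.9, 17.3, 14.4 and 15.7 TPM in the CZA+DAV132 isotype libraries. The single isotype library below 13 TPM was again library 11. The log2 change was −1.24 (SE 0.49, limma adjusted p = 0.0682). H2-DMb1 has a near-identical neighbour, H2-DMb2, so the division of reads between them is uncertain; H2-DMb2 changed by −0.88 (adjusted p = 0.0433). Ciita (ENSMUSG00000022504, chromosome 16, 10480059 to 10528418) ranged over 0.291 to 0.868 TPM with anti-PD-1 and 0.281 to 0.808 TPM with isotype in this arm, and over 0.23 to 0.607 TPM with anti-PD-1 and 0.223 to 0.89 TPM with isotype in the CZA arm.

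Of the libraries left out singly, isotype library 11 changed the number of these genes that passed the most. Without it, all 7 genes tested among the members fell, with 16.5% of all genes called lower. The changes were then −1.51 for H2-Aa (limma adjusted p = 0.025), −1.75 for H2-Ab1 (adjusted p = 0.0243), −1.55 for H2-Eb1 (adjusted p = 0.0281) and −1.76 for H2-DMb1 (adjusted p = 0.0135). With libraries 11, 16 and 19 all left out, an alternative chosen after seeing the data, 4 members fell (Cd74, H2-DMa, H2-DMb1 and H2-Oa) and 4.17% of all genes were called lower. Median-ratio scaling, which takes out the drop of the median gene, left H2-DMa (−1.15) and H2-Oa (−1.41) called, with Cd74 at −1.16 (limma adjusted p = 0.0558).

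Anti-PD-1 in the CZA arm gave changes of similar size in the classical chains, none of which passed over all genes. All 7 genes tested had lower means, with a median change of −1.27 against −0.02 over all genes. By limma, 0 of the 7 were called at adjusted p-values of 0.637 to 0.93, and 0% of all genes were called lower and 0.0155% higher. At an unadjusted p under 0.05, 0 of the 7 were higher and 7 were lower, against 1.96% and 3.14% of all genes.

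Cd74 had 139, 210.1, 51.7, 98.3 and 193 TPM in the CZA anti-PD-1 libraries 6 to 10, against 176, 261, 259, 521 and 819 TPM in the CZA isotype libraries 1 to 5. The groups overlapped, with 2 anti-PD-1 libraries above isotype library 1. The log2 change was −1.48 (SE 0.48, limma adjusted p = 0.637).

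H2-Aa had 46.3, 84.8, 20.5, 39.2 and 61.0 TPM in the CZA anti-PD-1 libraries, against 64.8, 84.5, 84.5, 163 and 249 TPM in the CZA isotype libraries. Only library 7 with anti-PD-1 reached the isotype range. The log2 changes were −1.30 for H2-Aa (limma adjusted p = 0.80), −1.27 for H2-Ab1 (adjusted p = 0.927) and −1.29 for H2-Eb1 (adjusted p = 0.845).

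H2-DMa had 28.5, 21.2, 11.1, 29.7 and 31.2 TPM in the CZA anti-PD-1 libraries, against 28.1, 35.6, 52.2, 42.1 and 68.4 TPM in the CZA isotype libraries. H2-Oa had 12.0, 3.27, 8.67, 9.67 and 8.12 TPM in the CZA anti-PD-1 libraries, against 7.86, 15.1, 17.4, 16.9 and 16.1 TPM in the CZA isotype libraries. For both genes isotype library 1 lay within the anti-PD-1 range, and the other 4 isotype libraries lay above that range. The log2 changes were −0.89 for H2-DMa (limma adjusted p = 0.801), −0.79 for H2-Oa (adjusted p = 0.93) and −1.13 for H2-DMb1 (adjusted p = 0.904).

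The difference between the arms in the anti-PD-1 change was itself tested, as an interaction. By limma, 0 of the 7 genes passed in either direction, where 0% of all genes were called. Before adjustment there were again 0 of the 7 at a p under 0.05, against 3.66% of all genes higher and 12.1% lower. The interaction was −0.96 for H2-Oa (95% interval −2.01 to 0.08, limma adjusted p = 0.342) and −0.71 for H2-DMa (−1.69 to 0.28, adjusted p = 0.435). It was −0.15 for Cd74, with an interval of −1.55 to 1.24, and 0.24 for H2-Aa, with an interval of −1.19 to 1.68. It was −0.55 for H2-Oa and −0.21 for H2-DMa without libraries 16 and 19, again with 0 of the 7 called and 0.00782% of all genes called lower. That members passed in the CZA+DAV132 arm and not in the CZA arm is therefore not shown to be a difference between the arms.

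**Figure D2:**
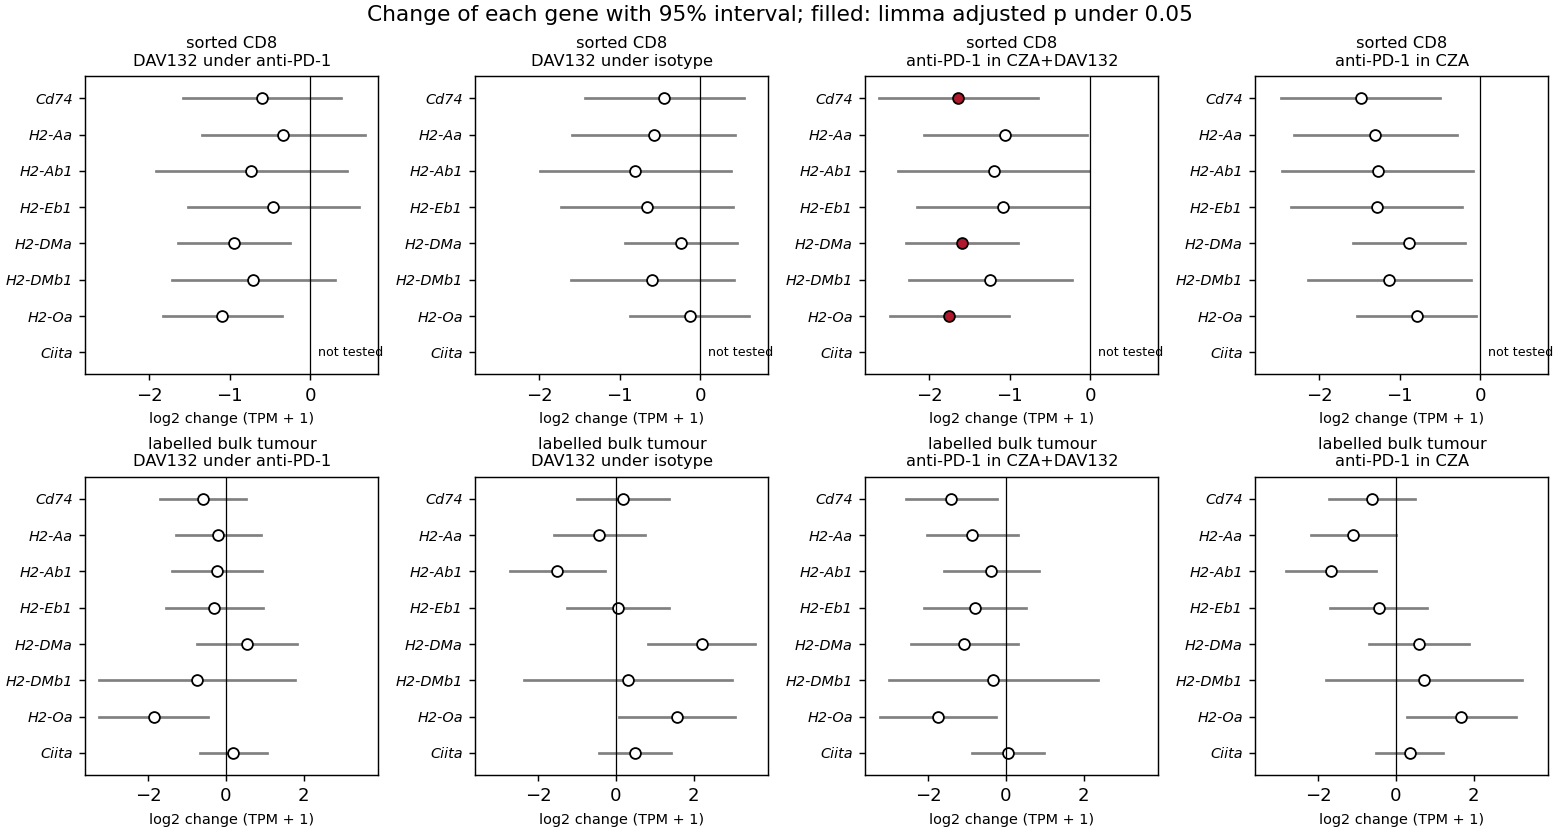
Log2 change on the TPM + 1 scale of each gene (point) with its 95% interval (line), in 4 comparisons of the sorted CD8 libraries (above) and of the libraries labelled bulk tumour (below); filled points have a limma adjusted p under 0.05. The filled points are Cd74, H2-DMa and H2-Oa in CD8 libraries with anti-PD-1 in the CZA+DAV132 arm (−1.64, −1.59 and −1.75).

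DAV132 was compared with CZA alone under each antibody. Under anti-PD-1, all 7 genes had lower means in the CZA+DAV132 arm and 0 passed, where 0.0386% of all genes were called lower and 0% higher. At an unadjusted p under 0.05, 0 of the 7 were higher and 2 were lower, against 2.98% and 30.5% of all genes. These were H2-Oa, with a log2 change of −1.09 (SE 0.36, limma adjusted p = 0.0707), and H2-DMa, with −0.94 (SE 0.34, adjusted p = 0.0781). The classical chains had −0.33 for H2-Aa, −0.73 for H2-Ab1 and −0.46 for H2-Eb1, and Cd74 had −0.60 (adjusted p = 0.364). When libraries 16 and 19 were left out, the changes were −0.67 for H2-Oa (limma adjusted p = 0.49), −0.45 for H2-DMa (adjusted p = 0.575) and −0.33 for Cd74, with 0 of the 7 called and 0.00782% of all genes called lower. With median-ratio scaling H2-Aa (0.19) and H2-Eb1 (0.053) had the opposite sign.

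Under isotype, 0 of the 7 genes passed with 0% of all genes called. At an unadjusted p under 0.05 there were also 0 of the 7, against 0.672% of all genes higher and 1.8% lower. The log2 changes ran from −0.81 for H2-Ab1 (95% interval −1.99 to 0.38) to −0.13 for H2-Oa (−0.87 to 0.61, limma adjusted p of 1.00 for each). The comparisons under anti-PD-1 and of anti-PD-1 in the CZA+DAV132 arm share the CZA+DAV132 anti-PD-1 libraries, so their values are not independent.

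Cd74, the classical chains and H2-DMb1 were tightly coupled across the 20 CD8 libraries, H2-DMa less so, and H2-Oa least. These correlations are descriptions over libraries that share the scaling of TPM and the group structure, and each is Pearson's r on log2(TPM + 1). H2-Aa and H2-Eb1 had r = 0.991, H2-Aa and H2-Ab1 0.978, H2-Aa and Cd74 0.963, and H2-Aa and H2-DMb1 0.945. H2-DMa had 0.842 with Cd74, 0.719 with H2-Aa, 0.72 with H2-Ab1 and 0.877 with H2-Oa, and H2-Oa had 0.508 with H2-Aa and 0.675 with Cd74. Without libraries 16 and 19, H2-DMa was closer to Cd74 (0.859) than to H2-Oa (0.775). In those 18 libraries H2-Aa had 0.99 with H2-Eb1, 0.966 with Cd74, 0.773 with H2-DMa and 0.41 with H2-Oa. With the group means taken out, H2-Aa and H2-Eb1 kept r = 0.987, H2-DMa and H2-Oa had 0.641, and H2-Aa and H2-Oa had 0.0894.

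Ratios between members were also taken within each library. Cd74 over H2-Aa had a median of 2.18 (range 1.70 to 3.45) in the CZA+DAV132 group given anti-PD-1 and 3.34 (2.67 to 4.20) in the CZA+DAV132 group given isotype. It was 2.52 (2.48 to 3.16) in the CZA group given anti-PD-1 and 3.09 (2.72 to 3.29) in the CZA group given isotype. H2-DMa over H2-Aa ranged from 0.101 to 0.531 in the CZA+DAV132 group given anti-PD-1 and from 0.275 to 1.29 in the CZA+DAV132 group given isotype. It ranged from 0.25 to 0.757 in the CZA group given anti-PD-1 and from 0.258 to 0.618 in the CZA group given isotype. In the CZA+DAV132 group given anti-PD-1 the ranges without libraries 16 and 19 were 1.95 to 3.45 for Cd74 over H2-Aa and 0.268 to 0.531 for H2-DMa over H2-Aa. Leaving these libraries out of the correlations and ratios was chosen after seeing the data. These ratios were not tested, and the ranges of the groups overlapped for both.

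Macrophage and monocyte markers had lower means with anti-PD-1 beside the class II genes, in libraries that were sorted as CD8 T cells. With anti-PD-1 in the CZA+DAV132 arm, 7 of the 10 dendritic cell markers tested were below 0. Their median change was −0.40, close to the −0.34 of all genes, and all 10 T cell markers were below 0 too. That count therefore does not set the dendritic list apart from the general drop. For the CZA arm the count was 8 of 10, with a median of −0.57 against −0.02 over all genes. Only 1 of the 10 T cell markers was below 0 there. Of the 2 B cell markers tested, 1 was below 0 in the CZA+DAV132 arm and 2 in the CZA arm, and neither was called lower. The 12 macrophage and monocyte markers summed to between 56.0 and 295 TPM (median 148) in the CZA+DAV132 group given anti-PD-1, against 77.2 to 793 TPM (median 641) in the CZA+DAV132 group given isotype. They summed to between 84.5 and 539.8 TPM (median 309) in the CZA group given anti-PD-1, against 311 to 2091 TPM (median 858) in the CZA group given isotype. All 12 had lower means with anti-PD-1 in each arm. In the CZA+DAV132 arm 5 of them fell (Apoe, C1qc, Cd14, Cd68 and Mrc1), where 19.4% of all genes were called lower. Cd68, a lysosomal protein of macrophages, was at −1.35 (limma adjusted p = 0.0123). In the CZA arm 0 passed by limma, and 11 were lower at an unadjusted p under 0.05, against 3.14% of all genes. Cd68 had −1.23 there (limma adjusted p = 0.579). Without libraries 16 and 19, 0 of the 12 passed in the CZA+DAV132 arm by limma while all 12 kept a lower mean, and without library 11, 9 of the 12 fell. None of the 12 was at 0 in every library of a group. In bulk samples such as these, fewer cells of a type and less RNA per cell cannot be told apart.

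Dendritic cell markers, 12 in all, summed to between 13.7 and 43.5 TPM in the CZA+DAV132 group given anti-PD-1 and 43.0 to 112 TPM in the CZA+DAV132 group given isotype. They summed to 30.2 to 69.2 TPM in the CZA group given anti-PD-1 and 56.3 to 127 TPM in the CZA group given isotype. A large part of these sums was a single gene, Ccr7. It averaged 9.02 TPM with anti-PD-1 and 44.1 TPM with isotype in the CZA+DAV132 arm, and 27.5 and 54.7 TPM in the CZA arm. Of the 10 dendritic cell markers tested in the CZA+DAV132 arm, 4 fell (Ccr7, Ccl17, Batf3 and Ccl22) and 1 rose (Siglech, a marker of plasmacytoid dendritic cells). Of all genes, 19.4% were called lower and 4.12% higher in that arm. In the CZA arm 0 passed by limma, and at an unadjusted p under 0.05 there were 5 lower and 0 higher, against 3.14% and 1.96% of all genes. When libraries 16 and 19 were left out, 3 fell (Batf3, Ccl17 and Ccr7) and 1 rose (Itgax) in the CZA+DAV132 arm, with 5.2% of all genes called lower. The 8 B cell markers summed to at most 16.1 TPM in any CD8 library, and the defining gene Ms4a1 was at a median of 0 or near it in every group. Of the 2 B cell markers tested, 1 rose with anti-PD-1 in the CZA+DAV132 arm (Pax5, 1.45, limma adjusted p = 0.0356), and 0 did without libraries 16 and 19. The other, Cd79b, was lower in that arm at an unadjusted limma p under 0.05, with means of 2.80 TPM with anti-PD-1 and 5.41 TPM with isotype. Of the 10 T cell markers 2 fell there (Cd2 and Trbc1), near the 19.4% of all genes called lower. The only endothelial marker tested, Pecam1, rose (1.74, limma adjusted p = 0.0406), and 0 of 7 fibroblast and fibrosarcoma markers passed. Without libraries 16 and 19, 1 T cell marker rose (Lck) and Pecam1 did not pass. In the CZA arm 0 markers of these lists passed. The part of these cells in the class II results was not tested.

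Library 11 was the isotype library of its arm with the lowest macrophage sum (77.2 TPM), while its T cell marker sum of 14679 TPM was the highest of that group. It had the lowest level of that group for all members except H2-Oa, including an H2-DMa of 26.7 TPM and a Ciita of 0.281 TPM, but its H2-Oa of 10.3 TPM was above that of library 13. Library 16 showed another combination, with a macrophage sum of 295 TPM, the highest of the CZA+DAV132 group given anti-PD-1, and a T cell sum of 3948 TPM, the lowest. Its H2-Aa was the highest of that group and its H2-DMa was above that of library 19 only.

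Over the 20 CD8 libraries, the mean log2 level of the macrophage markers had r = 0.963 with H2-Aa, 0.952 with Cd74, 0.957 with H2-DMb1, 0.739 with H2-DMa and 0.55 with H2-Oa. Leaving out the 2 libraries farthest from the median of that list, 5 and 19, gave 0.948 for H2-Aa, 0.612 for H2-DMa and 0.402 for H2-Oa. The 10 T cell markers had r = 0.319 with H2-Aa, 0.777 with H2-DMa and 0.696 with H2-Oa. Libraries 16 and 19 were farthest on the T cell list, and without them these were 0.109 for H2-Aa, 0.47 for H2-DMa and 0.332 for H2-Oa, so a good part of the relation of H2-DMa and H2-Oa to the T cell list rests on those libraries. The T cell sum was 3948 to 13180 TPM in the CZA+DAV132 group given anti-PD-1 and 11612 to 14679 TPM in the CZA+DAV132 group given isotype. It was 10894 to 17459 TPM in the CZA group given anti-PD-1 and 8745 to 15371 TPM in the CZA group given isotype.

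**Figure D3:**
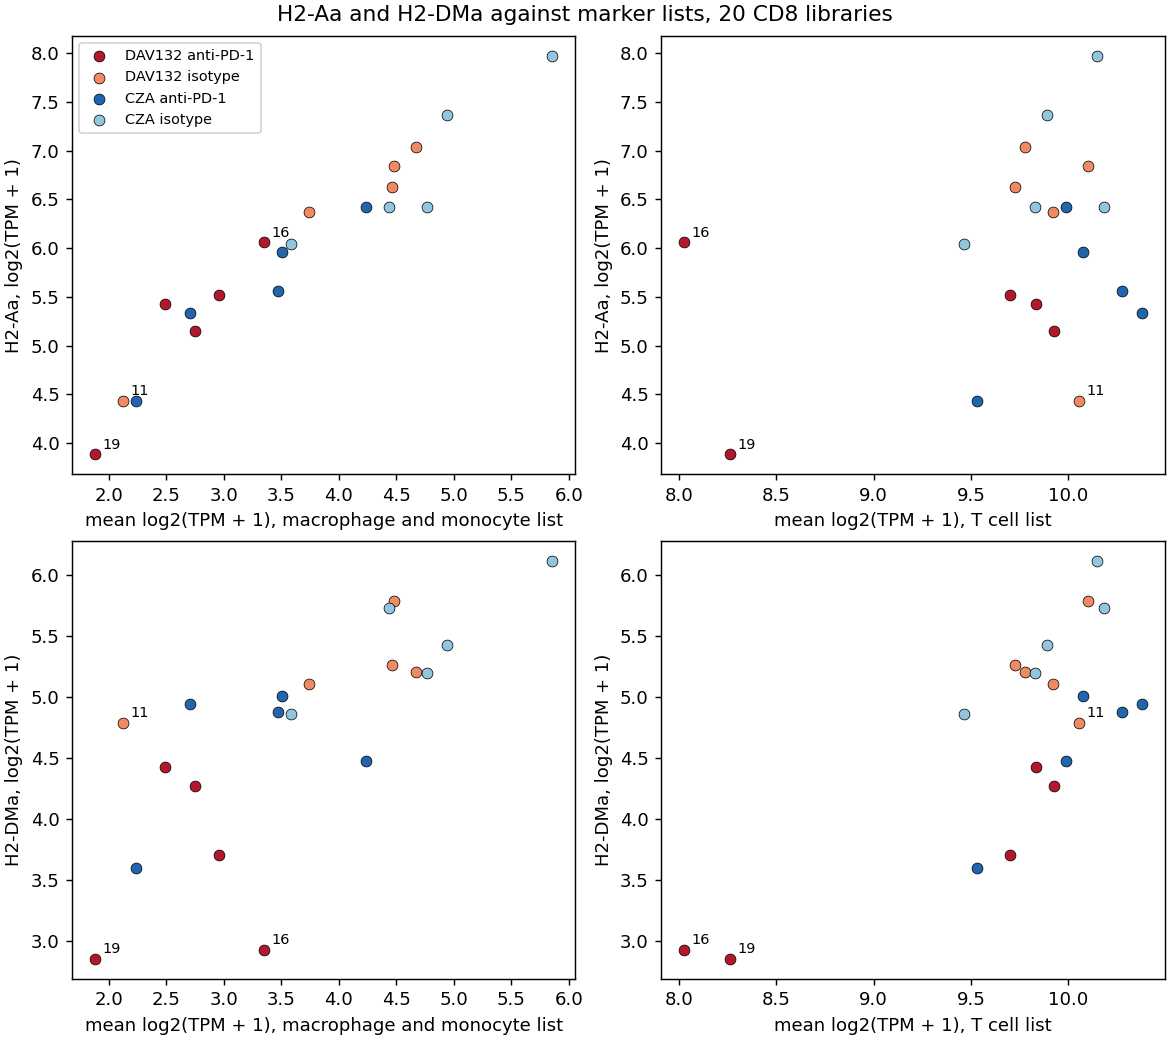
Level of H2-Aa (above) and H2-DMa (below) against the mean log2(TPM + 1) of the macrophage and monocyte markers (left) and the T cell markers (right), with a point for each of the 20 sorted CD8 libraries and libraries 11, 16 and 19 numbered; axes do not start at 0. H2-Aa lies along a line with the macrophage markers (r = 0.963) and not with the T cell markers (r = 0.319), while H2-DMa is low in libraries 16 and 19, which are low in T cell markers.

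The genes most like the members in their pattern were named by correlation with the mean log2 level of the 7 tested members over the 20 CD8 libraries, among 7540 genes averaging at least 5 TPM. The 10 highest were Apoe (r = 0.958), Lyz2 (0.951), Fcgr3 (0.950), Il1b (0.946), Ctsz (0.938), Cd14 (0.937), C1qb (0.936), Tyrobp (0.936), C1qc (0.933) and C1qa (0.933). Lyz2 encodes lysozyme, Apoe a lipoprotein, Tyrobp an adaptor for activating receptors of myeloid and NK cells, and C1qa, C1qb and C1qc the chains of complement C1q. Of these 10, 6 (Apoe, Lyz2, Cd14, C1qb, C1qc and C1qa) are also on the macrophage and monocyte list.

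Other genes of the class II route were measured from a list of 18, of which 15 were tested in the CD8 set. With anti-PD-1 in the CZA+DAV132 arm 4 of the 15 fell and 0 rose, with a median of −0.62 against −0.34 over all genes. Of all genes, 19.4% were called lower and 4.12% higher there. Ifi30, the lysosomal thiol reductase GILT that unfolds antigens, averaged 17.2 ± 6.88 TPM with anti-PD-1 and 39.3 ± 9.66 TPM with isotype (SD, n = 5 each; log2 change −1.20, limma adjusted p = 0.00929). Rfxap, a subunit of the RFX complex that binds the X box, averaged 33.3 ± 13.3 TPM with anti-PD-1 and 66.9 ± 6.4 TPM with isotype (−1.08, adjusted p = 0.00775). Ctss, the cathepsin that trims the invariant chain, averaged 94.3 ± 40.5 TPM with anti-PD-1 and 176 ± 53.8 TPM with isotype (−0.96, adjusted p = 0.0427), and the fourth was H2-DMb2. Without libraries 16 and 19, Rfxap was the 1 of the 15 that fell (−0.66, limma adjusted p = 0.016), with 5.2% of all genes called lower. Without library 11, all of these 4 fell, with 16.5% of all genes called lower.

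Not all of the list shared this direction. Lgmn, an asparagine endopeptidase of lysosomes, had a log2 change of 0.61 (limma adjusted p = 0.269) and Rfx5, the DNA-binding subunit of RFX, had −0.16 (adjusted p = 0.629). In the CZA arm 0 of the 15 passed by limma, and 5 were lower at an unadjusted p under 0.05, against 3.14% of all genes. The values there were −0.96 for Ifi30 (limma adjusted p = 0.586), −0.15 for Rfxap (adjusted p = 0.997) and −1.05 for Lgmn (adjusted p = 0.785). With DAV132 under either antibody 0 of the 15 passed by limma. At an unadjusted p under 0.05 there were 1 higher and 5 lower under anti-PD-1, against 2.98% and 30.5% of all genes. Under isotype there were 0 higher and 1 lower, against 0.672% and 1.8% of all genes.

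The route from interferon gamma to Ciita was followed with 9 genes, all tested. Jak2, a kinase of the interferon gamma receptor, fell with anti-PD-1 in the CZA+DAV132 arm (−0.70, limma adjusted p = 0.0396). It was the only one of the 9 to pass there, where 19.4% of all genes were called lower. Ifng itself averaged 219 ± 114 TPM in CZA+DAV132 anti-PD-1 libraries and 279 ± 51.4 TPM in CZA+DAV132 isotype libraries (SD, n = 5 each; log2 change −0.52, adjusted p = 0.351). Irf1, a factor at a Ciita promoter, had a log2 change of −0.20 (limma adjusted p = 0.689). Jak2 did not pass without libraries 16 and 19, and without library 11, 0 of the 9 passed. In the CZA arm 0 of the 9 passed by limma, with 0 at an unadjusted p under 0.05.

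The libraries labelled bulk tumour were analysed apart, since their table may have been normalised separately. Their labelled tissue was checked against markers. The T cell markers summed to group medians of 10888 TPM (CZA+DAV132 with anti-PD-1), 10197 TPM (CZA+DAV132 with isotype), 11172 TPM (CZA with anti-PD-1) and 7754 TPM (CZA with isotype). The fibroblast and fibrosarcoma markers summed to medians of 33.2, 86.5, 48.4 and 89.8 TPM in the same order, and reached 1844 TPM in T986, 364 TPM in T023 and 219 TPM in T990. The endothelial markers summed to 566 to 5831 TPM, against 187 to 2467 TPM in the CD8 set, whose table may be on another scale. The endothelial sums rest on few genes. Of the 5 endothelial markers only 2 passed the filter in this set and 1 in the CD8 set. T021, with a sum of 5222 TPM, had a mean log2(TPM + 1) of only 2.76 over the 5. The endothelial sums therefore do not settle the label. High T cell sums beside low fibroblast and fibrosarcoma sums leave the label in doubt for most of these libraries. T986 had a T cell sum of 8262 TPM beside its fibroblast and fibrosarcoma sum of 1844 TPM. No reference levels of whole tumour were used here, so the label was not tested. The set is therefore called by its label only.

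Levels in these 19 libraries had the same order of genes as in the CD8 set except that H2-Aa stood above H2-Ab1. The medians were 66.6 TPM for Cd74, 59.3 TPM for H2-Aa, 45.6 TPM for H2-Ab1 and 22.6 TPM for H2-Eb1. They were 5.68 TPM for H2-DMa, 5.26 TPM for H2-DMb1, 1.96 TPM for H2-Oa and 0.167 TPM for Ciita. H2-DMb1 was listed at 0 in 4 of the libraries, H2-Oa in 3, Ciita in 2 and H2-DMa in 1, and Ciita reached 1 TPM in 4 of them. All 8 genes were tested.

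No member passed in any comparison of the libraries labelled bulk tumour by limma, with adjustment over 13326 genes. Anti-PD-1 in the CZA+DAV132 arm came nearest to the CD8 result, with log2 changes below 0 for 7 of the 8 members and a median change of −0.83 against −0.15 over all genes. Of the 8, 0 were called. At an unadjusted p under 0.05, 0 were higher and 2 were lower, against 3.56% and 6.72% of all genes. By adjusted p, 0.21% of all genes were called lower and 0.03% higher.

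Cd74 had 62.3, 66.6, 34.0, 63.9 and 56.7 TPM in CZA+DAV132 anti-PD-1 libraries T021, T023, T026, T029 and T030, against 46.8, 178, 228 and 245 TPM in the CZA+DAV132 isotype libraries T022, T024, T027 and T028. Isotype library T022 lay within the anti-PD-1 range and the other 3 lay far above it. The log2 change was −1.40 (SE 0.56, 95% interval −2.57 to −0.23, limma adjusted p = 0.341). The interval was as wide for H2-Aa (−2.03 to 0.30), so changes of the size called in the CD8 set lie within both.

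H2-Aa had 54.9, 59.3, 18.2, 38.5 and 49.5 TPM in those CZA+DAV132 anti-PD-1 libraries, against 40.8, 90.6, 121 and 71.3 TPM in the CZA+DAV132 isotype libraries. As with Cd74, T022 was the isotype library that overlapped. The log2 changes were −0.86 for H2-Aa (limma adjusted p = 0.679), −0.38 for H2-Ab1 (adjusted p = 0.905) and −0.79 for H2-Eb1 (adjusted p = 0.777).

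H2-Oa had 0.307, 0, 2.04, 1.81 and 0 TPM in CZA+DAV132 anti-PD-1 libraries, against 10.4, 2.91, 1.43 and 6.90 TPM in the CZA+DAV132 isotype libraries (log2 change −1.74, limma adjusted p = 0.355). H2-DMa had 12.7, 4.80, 4.39, 5.68 and 8.94 TPM with anti-PD-1, against 11.7, 13.8, 12.0 and 27.9 TPM with isotype in that arm (−1.07, adjusted p = 0.65). In both genes the groups overlapped in a few libraries. H2-DMb1 ranged over 0.252 to 10.7 TPM with anti-PD-1 and 0 to 20.7 TPM with isotype in this arm, and over 0.801 to 24.5 TPM with anti-PD-1 and 0 to 79.4 TPM with isotype in the CZA arm. Ciita ranged over 0.167 to 2.28 TPM with anti-PD-1 and 0.0549 to 2.76 TPM with isotype in this arm, and over 0 to 2.20 TPM with anti-PD-1 and 0 to 0.902 TPM with isotype in the CZA arm.

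Among the same libraries, 0 members were called with anti-PD-1 in the CZA arm, with 0.0075% of all genes called lower and 0.278% higher. H2-Ab1 had 27.8, 36.1, 45.6, 14.2 and 71.9 TPM in the CZA anti-PD-1 libraries T982, T984, T988, T989 and T990, against 131, 116, 196, 52.3 and 106 TPM in the CZA isotype libraries T983, T985, T986, T987 and T991. The groups overlapped through library T987 with isotype and library T990 with anti-PD-1. The log2 change was −1.66 (SE 0.55, limma adjusted p = 0.198). H2-Aa had −1.10 (adjusted p = 0.381) and Cd74 −0.62 (adjusted p = 0.654), whereas H2-Oa was higher at 1.68 (adjusted p = 0.293). Before adjustment 1 member was higher and 2 were lower, of 8, at a p under 0.05, against 11% and 2.09% of all genes.

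DAV132 was compared with CZA alone in the same libraries. Under anti-PD-1, 0 of the 8 were called and 1, H2-Oa, was lower at an unadjusted p under 0.05 (−1.86, SE 0.67, limma adjusted p = 0.461), with 0% of all genes called in either direction and 2.01% higher and 5.57% lower before adjustment. Under isotype, 0 were called by limma, where 0.113% of all genes were called higher and 0% lower. Before adjustment H2-DMa (2.20, adjusted p = 0.205) and H2-Oa (1.56, adjusted p = 0.438) were higher and H2-Ab1 (−1.51, adjusted p = 0.344) was lower, against 9.03% of all genes higher and 1.88% lower. The library names T021 to T030 and T982 to T991 follow the FMT arm, so anything that goes with these names and the arm cannot be told apart. The interaction passed for 0 of the 8, where 0.045% of all genes were called lower and 0% higher, and was −3.42 for H2-Oa (95% interval −5.47 to −1.38, limma unadjusted p = 0.00224, adjusted p = 0.29). Before adjustment it was the only member below 0.05, with 1.2% of all genes higher and 9.12% lower.

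**Figure D4:**
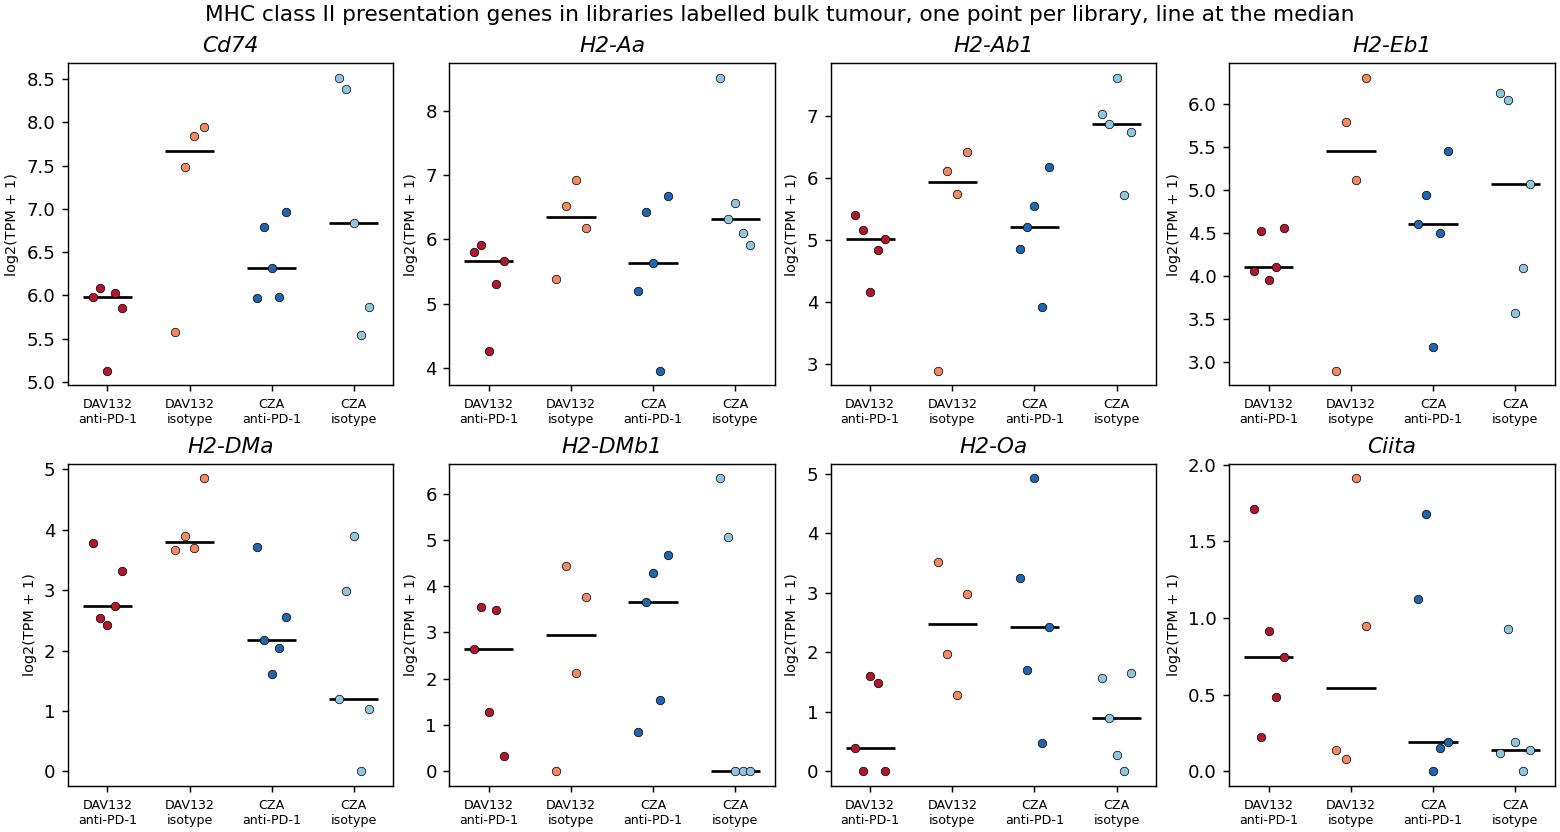
Level of each gene, log2(TPM + 1), in the 19 libraries labelled bulk tumour by group, with a point for each library and a line at the group median; axes differ between panels. The spread within groups exceeds most differences between them, and H2-DMb1 is listed at 0 in 4 libraries.

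The macrophage markers correlated with the classical chains here too. Their sum was 65.6 to 149 TPM in the CZA+DAV132 group given anti-PD-1 and 54.5 to 453 TPM in the CZA+DAV132 group given isotype, and 45.6 to 274 TPM in the CZA group given anti-PD-1 and 186 to 737 TPM in the CZA group given isotype. Their mean log2 level had r = 0.873 with Cd74, 0.867 with H2-Ab1, 0.838 with H2-Aa and 0.69 with H2-Eb1 over the 19 libraries, against 0.163 with H2-DMa and −0.00382 with H2-Oa. Without the 2 libraries farthest on that list, T983 and T989, these were 0.864 for Cd74, 0.839 for H2-Ab1, 0.752 for H2-Aa and 0.33 for H2-DMa. The dendritic cell markers summed to 29.6 to 58.4 TPM in the CZA+DAV132 group given anti-PD-1, against 72.9 to 129 TPM in the CZA+DAV132 group given isotype, without overlap. They summed to 45.9 to 79.8 TPM in the CZA group given anti-PD-1, against 83.2 to 161 TPM in the CZA group given isotype, again without overlap. A large part of these sums was a single gene, Ccr7. It averaged 14.5 TPM with anti-PD-1 and 56.2 TPM with isotype in the CZA+DAV132 arm, and 31.4 and 79.7 TPM in the CZA arm. The separation of the sums is therefore not shown for the list as a whole. With anti-PD-1 in the CZA+DAV132 arm the 9 dendritic markers tested had a median change of −1.35, with 0 called by limma and 4 lower at an unadjusted p under 0.05. The 12 macrophage markers had −0.77, with 0 called and 1 lower before adjustment. Of all genes, 6.72% were lower before adjustment, and their median change was −0.15 in that comparison. The mean log2 level of the dendritic list had r = 0.579 with Cd74, 0.474 with H2-Aa and 0.173 with H2-Oa. The part of these cells in the class II levels was not tested.

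The genes closest in pattern to the mean of the 8 members over the 19 libraries, among 8694 candidates, were Dab2 (r = 0.848), Map2k4 (0.822), Twf1 (0.813), Impdh2-ps (0.794), Il1b (0.774), C1qc (0.772), Gm21992 (0.745), Ilf2 (0.731), Atf3 (0.731) and Maff (0.729). Il1b, an inflammatory cytokine of myeloid cells, and C1qc were among the 10 highest in both sets. Of the other class II genes, 17 were tested in these libraries and 0 were called in any comparison; of the 9 genes from interferon gamma to Ciita, 0 were called. With anti-PD-1 in the CZA+DAV132 arm, at an unadjusted p under 0.05, 1 of the 17 was higher and 1 lower, against 3.56% and 6.72% of all genes.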

How the data were processed

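Directional libraries were made from 300 ng of ribodepleted total RNA, per the labels' protocols. Values were deposited by the authors as TPM in a table for each set; kallisto 0.45 and build GRCm38 were used, per the submitters' processing notes. The sources used here do not give the annotation. Groups came from the titles. Gene IDs and coordinates came from a symbol match to GENCODE M21. TPM was put on the log2(TPM + 1) scale, which understates changes of low genes. Testing was limited to genes that reached 1 TPM in 4 or more libraries (12942 for CD8, 13326 for the libraries labelled bulk tumour) and used limma 3.58.1 in R 4.3.3 (a mean per group, empirical Bayes with a trend, two-sided, Benjamini-Hochberg over all genes, called under 0.05). The fit was checked on simulated data. All 8 members and the called genes of each list are named. The members, lists and alternatives were chosen with earlier results of these data known. Alternatives were fits restricted to the compared groups, a 0.1 TPM pseudocount, no filter, a mean of at least 5 TPM, median-ratio scaling, and libraries left out. H2-DMb1 and H2-DMb2 are near-identical, and kallisto's division of reads between them is uncertain. Results for some individual genes of the lists are not reported here.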

Additional observations from a re-analysis of the deposited data

Results flagged for a closer look

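A gap test for a single stray library was made in 64 groups of 4 or 5 libraries and flagged 8. Chance flags about 1 in 20 where values are normally distributed and the groups independent. The test used untransformed TPM of genes from the same libraries, so that rate is only a rough guide here. In CD8 libraries of the CZA+DAV132 isotype group, library 11 had 86.8 TPM of Cd74, with the next at 302 TPM, and 1.63 TPM of H2-DMb1, with the next at 13.9 TPM. In the CZA isotype group, CD8 library 1 had 7.86 TPM of H2-Oa, with the next at 15.1 TPM.

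Among the libraries labelled bulk tumour, T028 of the CZA+DAV132 isotype group had 27.9 TPM of H2-DMa, with the next at 13.8 TPM. In the CZA anti-PD-1 group T982 had 12.1 TPM of H2-DMa, with the next at 4.87 TPM, and T988 had 29.4 TPM of H2-Oa, with the next at 8.55 TPM. In the CZA isotype group T983 had 365 TPM of H2-Aa, with the next at 93.7 TPM, and T985 had 0.902 TPM of Ciita, with the next at 0.14 TPM.

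The effect of DAV132 on H2-Oa in the libraries labelled bulk tumour ran in opposite directions under the antibodies, with a log2 change of −1.86 under anti-PD-1 and 1.56 under isotype. Every CZA+DAV132 library lay below the CZA mean under anti-PD-1 and above it under isotype. The CZA mean under anti-PD-1 (8.99 TPM) rested largely on T988 at 29.4 TPM, and every other CZA library given anti-PD-1 also lay below it. The groups overlapped under each antibody. The test of the difference, the interaction, gave −3.42 (limma unadjusted p = 0.00224, adjusted p = 0.29), so it did not pass over all genes.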

How the results depend on the processing

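No paired analysis was possible because the groups compared share no replicate numbers. In the CD8 set, the members called lower with anti-PD-1 in the CZA+DAV132 arm numbered 3 in the reported fit and 2 to 7 when each library was left out, 7 without library 11 (16.5% of all genes lower), and 2 without library 15 (Cd74 −1.50, limma adjusted p = 0.0527; 11.9% of all genes lower) or 19 (Cd74 −1.32, adjusted p = 0.0612; 12.6%). They numbered 4 under the mean of at least 5 TPM (34.1% of all genes lower), 2 under median-ratio scaling (14.3%) and 2 without libraries 16 and 19 (5.2%). Over all genes that comparison gave 533 higher and 2509 lower in the reported fit and 1478 and 1829 under median-ratio scaling. A fit of those groups alone called 8.35% of 11870 genes lower, against 19.4% in the reported fit. With DAV132 under anti-PD-1 the members called lower numbered 0, and 2 under the mean of at least 5 TPM (H2-DMa, limma adjusted p = 0.0499; H2-Oa, adjusted p = 0.0456), where 17.5% of all genes were called lower. When each library was left out they numbered 0 to 2, with 1 without library 8 (10.3% of all genes lower) and 2 without library 18 (17%) or 20 (29.2%). The causes of these shifts between settings were not tested.

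Signs of members turned in the following changes, none of them called in the reported fit. Under median-ratio scaling, with DAV132 under anti-PD-1, the changes were 0.19 for H2-Aa and 0.053 for H2-Eb1 in the CD8 set, and 0.10 for H2-Aa and 0.066 for H2-Ab1 in the libraries labelled bulk tumour. In the libraries labelled bulk tumour H2-Eb1 was −0.10 with DAV132 under isotype, and a pseudocount of 0.1 TPM gave H2-DMb1 0.037 for anti-PD-1 in the CZA+DAV132 arm. With each library left out, H2-Oa in the CD8 set with DAV132 under isotype ranged from −0.32 to 0.017. In the libraries labelled bulk tumour with DAV132 under isotype, Cd74 ranged from −0.19 to 0.73, H2-Aa from −0.65 to 0.031, H2-DMb1 from −0.31 to 1.32 and H2-Eb1 from −0.38 to 0.76. With DAV132 under anti-PD-1, H2-Aa ranged from −0.60 to 0.090 and H2-Ab1 from −0.53 to 0.034. With anti-PD-1 in the CZA+DAV132 arm, Ciita ranged from −0.18 to 0.19 and H2-DMb1 from −1.19 to 0.29. TPM gives no depth, so counting error is unknown.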
